A study of Mus musculus with 13 samples.

Results

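The 10 genes described here encode receptors for the monoamines dopamine and serotonin: Drd1, Drd2, Drd5, Htr1a, Htr1b, Htr1d, Htr2a, Htr2c, Htr4 and Htr7. They were taken by name from 26264 genes, and all 10 passed the filter on low values (at least 2 libraries with 10 or more normalized counts), as did 17755 genes in all. The study is a bulk RNA-seq experiment on punches of the ventral tegmental area (VTA) of C57BlJ/6 mice of both sexes. The Setd7 virus was given on postnatal day 14, a day not stated separately for the control virus, and tissue was taken in adulthood. The virus carried either green fluorescent protein (GFP) or Setd7, a lysine methyltransferase able to act on histone H3, and some animals then met social defeat stress as adults. The groups were GFP virus without defeat (GFP control, n = 3), GFP virus with defeat (GFP defeat, n = 4), Setd7 virus without defeat (Setd7 control, n = 4) and Setd7 virus with defeat (Setd7 defeat, n = 2). The promoter and serotype of the virus are not given in the sources used here, so the cells that took it up are not known, and the age at tissue collection is not given either. Whether each library holds 1 animal is not stated throughout, and the data column of Setd7 defeat replicate 1 carries 2 joined library numbers. The p-values therefore measure the spread between these libraries.

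Dopamine and serotonin receptors are membrane receptors that, in this set, all signal through G proteins. Drd1 and Drd5 (the D1 class), Htr4 and Htr7 couple to the stimulatory G protein and raise cyclic AMP. Drd2, Htr1a, Htr1b and Htr1d couple to inhibitory G proteins, which lower cyclic AMP and can open inwardly rectifying potassium channels, and Htr2a and Htr2c couple to the G protein that activates phospholipase C. In the midbrain, Drd2 is the autoreceptor through which dopamine neurons sense their own transmitter. Htr1a is the corresponding autoreceptor on the cell bodies of serotonin neurons, whose raphe nuclei adjoin the VTA, and Htr1b and Htr1d act mostly at axon terminals.

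Whole-series values were as follows. Between 26548713 and 50842070 recovered reads per library were assigned to genes, and libraries of a group correlated at 0.971 to 0.984 over the tested genes. Setd7 read 28587 to 158681 normalized counts in the Setd7 libraries and 10888 to 14538 in the GFP libraries, so every library matched its virus label. All 13 dopamine neuron markers listed were above 0 in each library. Some libraries stood apart. Low Th marked 3 of them, namely replicates 2 and 3 of GFP control plus replicate 1 of GFP defeat: Th, the enzyme that makes the dopamine precursor, read 3392, 2508 and 2539 there and 9760 to 19111 in the remaining 10. Setd7 control replicate 4 had microglia markers summing to 27196 normalized counts against 6920 to 11701 in the other libraries, and Setd7 control replicate 3 had hypothalamus markers at 4291 against 107 to 1720. Leaving out the 3 libraries with low Th leaves GFP control with replicate 1 alone, which the model then takes to vary like the other groups.

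Promoter windows for 9 of the 10 genes were available from RefSeq on build GRCm38.p6, as the 250 bases upstream of each annotated start (11 windows, since Drd1 and Htr1d have more than 1 start). The windows of Drd2 and Htr1a are printed because these genes tracked the marker genes of dopamine and serotonin neurons, respectively, across the libraries (values follow). The Drd2 window lies at chr9:49340153-49340402 and that of Htr1a at chr13:105443443-105443692, both on the plus strand. Sequences run 5′ to 3′ and capitals mark matches to the GC box.
Drd2: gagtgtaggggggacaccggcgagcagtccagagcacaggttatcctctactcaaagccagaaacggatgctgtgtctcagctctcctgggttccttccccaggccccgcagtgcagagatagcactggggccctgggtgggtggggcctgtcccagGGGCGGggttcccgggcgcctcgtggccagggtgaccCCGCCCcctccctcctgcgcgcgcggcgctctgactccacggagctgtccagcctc
Htr1a: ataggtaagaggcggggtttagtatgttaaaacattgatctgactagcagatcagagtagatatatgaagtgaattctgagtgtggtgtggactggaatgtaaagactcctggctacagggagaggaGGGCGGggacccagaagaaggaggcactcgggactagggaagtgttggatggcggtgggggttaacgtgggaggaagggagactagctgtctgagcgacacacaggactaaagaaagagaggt

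The GC box (GGGCGG, either strand) was in 7 of the 11 receptor windows and in 32.7% of 32851 genome-wide windows of the same 250 upstream bases. It matched 2 times for Drd2 and 1 time for Htr1a. The element bound by single NR4A2 molecules (AAAGGTCA, either strand), NR4A2 being a factor of dopamine neurons, was in 0 of the 11 windows and in 1.34% genome-wide. An ETS-type core of the kind bound by FEV, a factor of serotonin neurons (CGGAAG, either strand), was in 3 of the 11 (Drd1, Htr1b and Htr1d) and in 13.6% genome-wide. The cyclic AMP element (TGACGTCA) was in 0 of the 11 (1.55% genome-wide), as was the TATA box (TATAAA, either strand; 12.4%). Both printed windows held GC box matches and no match to the other motifs searched, so none overlapped. CpG dinucleotides ranged from 4 in the Htr2a window to 35 in that of Drd5 and 41 in that of Htr7, against a genome-wide median of 6 and counts of 15 for Drd2 and 6 for Htr1a.

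Levels were compared between genes as normalized counts per kb of exon, with exon lengths from GENCODE M21. Drd2 had the highest level at 994 ± 365 per kb (SD, n = 13 libraries), followed by Htr2c at 740 ± 95.4. Their ranges overlapped, and Drd2 exceeded Htr2c in 10 of 13 libraries. Htr1a (304 ± 82.6 per kb), Htr7 (282 ± 48.6) and Htr1b (217 ± 18.3) formed the next step. Htr1a was above Htr7 in 7 of 13 libraries, so their order was not resolved, whereas Htr7 was above Htr1b in all 13. Htr2a (117 ± 15.8 per kb), Htr1d (108 ± 41.5) and Htr4 (84.7 ± 7.85) came below Htr1b without overlap between Htr1b and Htr2a. Drd1 (39.1 ± 10.1 per kb) and Drd5 (32.9 ± 5.30) were the lowest of the 10, and Drd1 exceeded Drd5 in 10 of 13 libraries. Within the Drd5 and Htr1b exons lie parts of antisense genes (Gm26560 and D430036J16Rik), and since the strand setting of the counting is not given, reads of the pair cannot be told apart.

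**Figure D1:**
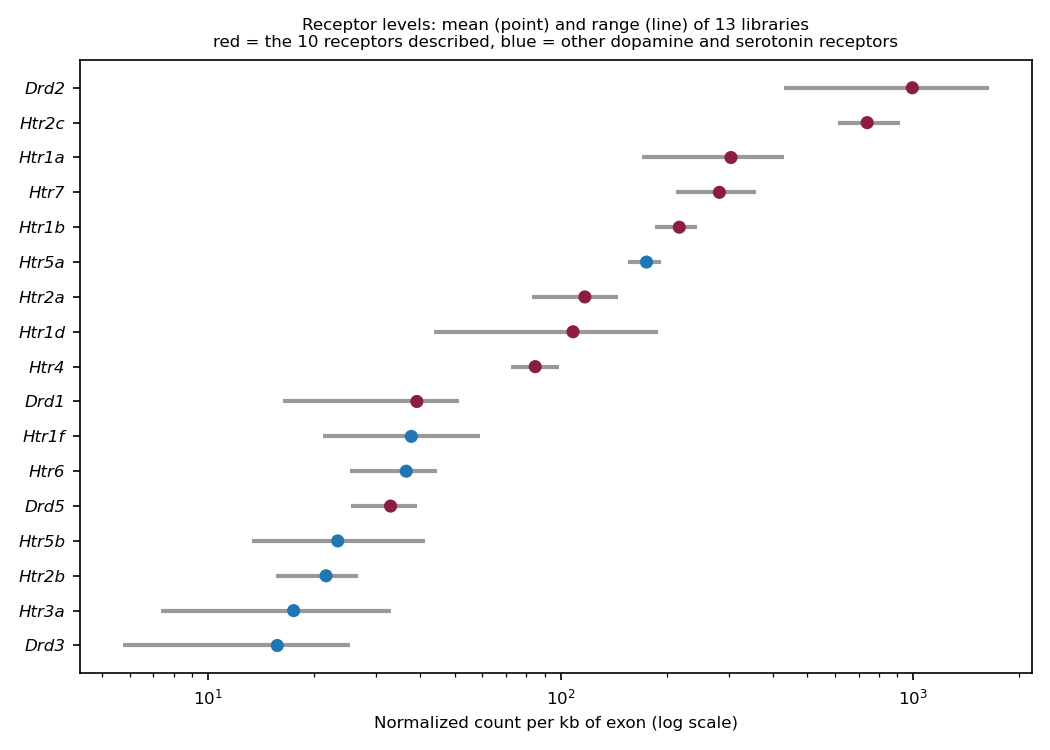
Normalized counts per kb of exon (horizontal log axis) for dopamine and serotonin receptor genes, with the mean of 13 libraries as a point and the lowest to highest library as a line; genes at 0 in any library (Drd4 and Htr3b) are not drawn. Drd2 (994) and Htr2c (740) stand above the other receptors, and Drd1 (39.1) and Drd5 (32.9) are the lowest of the 10 described, in red.

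The remaining receptors of both families gave a frame for these levels. Htr5a, an inhibitory serotonin receptor, reached 175 ± 12.1 per kb, between Htr1b and Htr2a. Htr1f (37.7 per kb), Htr6 (36.5), Htr5b (23.3), Htr2b (21.6), the ion-channel subunit Htr3a (17.5) and Drd3 (15.7) were at or below the level of Drd1. Drd4 read between 0 and 10.6 normalized counts, and Htr3b was at 0 in 12 of 13 libraries and did not pass the filter. Reads of Htr2b cannot be told apart from those of Psmd1 on the opposite strand.

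The 10 genes differed widely in how much they varied from library to library. Htr1b and Htr4 varied little, with coefficients of variation (CV) of 8.42% and 9.27% and highest-to-lowest ratios of 1.31 and 1.37. Htr2c (12.9%), Htr2a (13.5%), Drd5 (16.1%) and Htr7 (17.2%) followed. Drd1 (25.7%), Htr1a (27.2%), Drd2 (36.7%) and Htr1d (38.2%) varied most, with highest-to-lowest ratios of 3.15, 2.52, 3.80 and 4.30. Counting noise alone gave a CV of 1.22% for Htr2c and 8.92% for Drd1, and it was highest for Drd5, whose lowest library held 70 reads. Drd1 and Drd5, read 59 to 261 and 70 to 170 times, thus had the highest counting noise, whereas Htr1d and Drd2 had the largest standard errors between groups (0.41 and 0.36 for Setd7 without defeat, against 0.30 for Drd1 and 0.19 for Drd5).

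**Figure D2:**
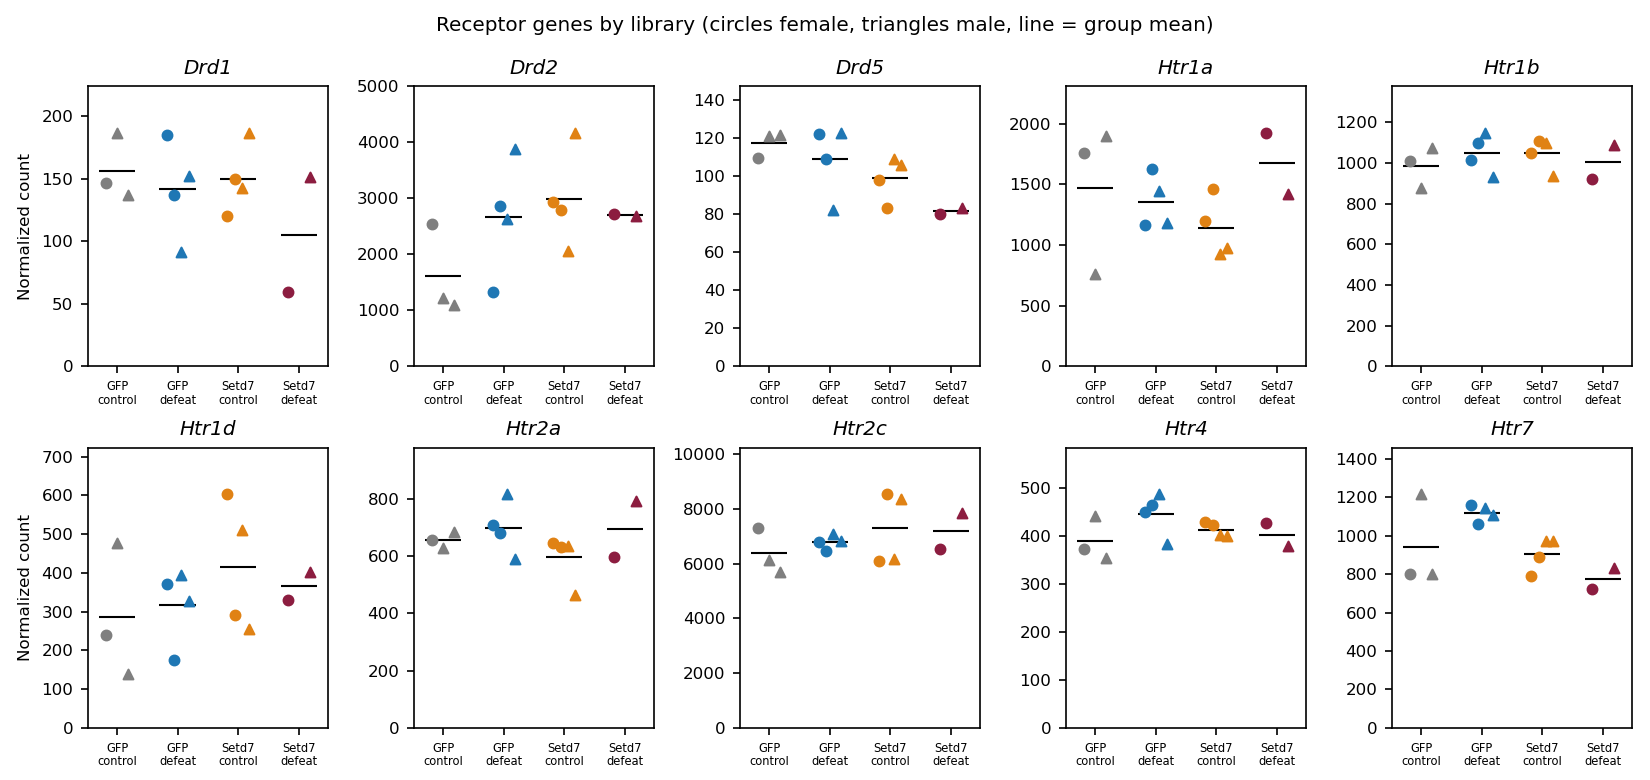
Normalized counts (vertical axes, from 0) of each receptor gene in 13 libraries by group, with female libraries as circles, male libraries as triangles and the group mean as a line. Htr7 in Setd7 defeat (722 and 831) lies below all 4 GFP defeat libraries, and Drd2 is low (1098 to 1325) in the 3 libraries with low Th.

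The design asks whether Setd7 virus, adult defeat or their combination alters expression in the VTA. For the receptors the count was 0 of 10 past an adjusted p of 0.05 in each of 8 comparisons (limma with sex as a covariate, Benjamini-Hochberg over all tested genes). By the same rule 0% of all genes were called in the 4 comparisons between pairs of groups and in the interaction. The share was also 0% in defeat averaged over virus, with 0.00563% in Setd7 averaged over defeat and 0.062% in the sex comparison. Setd7 itself was thus not called without or after defeat, although all Setd7 libraries read higher for it than all GFP libraries. A count of 0 therefore does not show that the receptors were unchanged. By edgeR, 0 of 10 receptors were called in any comparison, where the share of all genes was 0% except for averaged Setd7 (0.00563%) and sex (0.0563%). By DESeq2, 0 of 10 were called beside shares of all genes of 0.197% (Setd7 without defeat), 0.479% (defeat with GFP), 0.0338% (Setd7 after defeat) and 0.0394% (defeat under Setd7 virus). For DESeq2 the shares were 0.00563% in the interaction, 0.0394% for averaged Setd7, 0.0451% for averaged defeat and 0.0957% for sex. The smallest adjusted p of any receptor was 0.493 by limma, 0.533 by edgeR and 0.225 by DESeq2, all above the threshold. At an unadjusted p under 0.05, 6 of 80 receptor tests were counted by limma, 6 by edgeR and 9 by DESeq2, beside 5.73%, 5.76% and 6.07% of the tests of all genes over the 8 comparisons. The 6 by limma were Drd2 for Setd7 without defeat, Drd5 for averaged Setd7, and Htr7 for defeat with GFP, Setd7 after defeat, averaged Setd7 and the interaction.

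**Figure D3:**
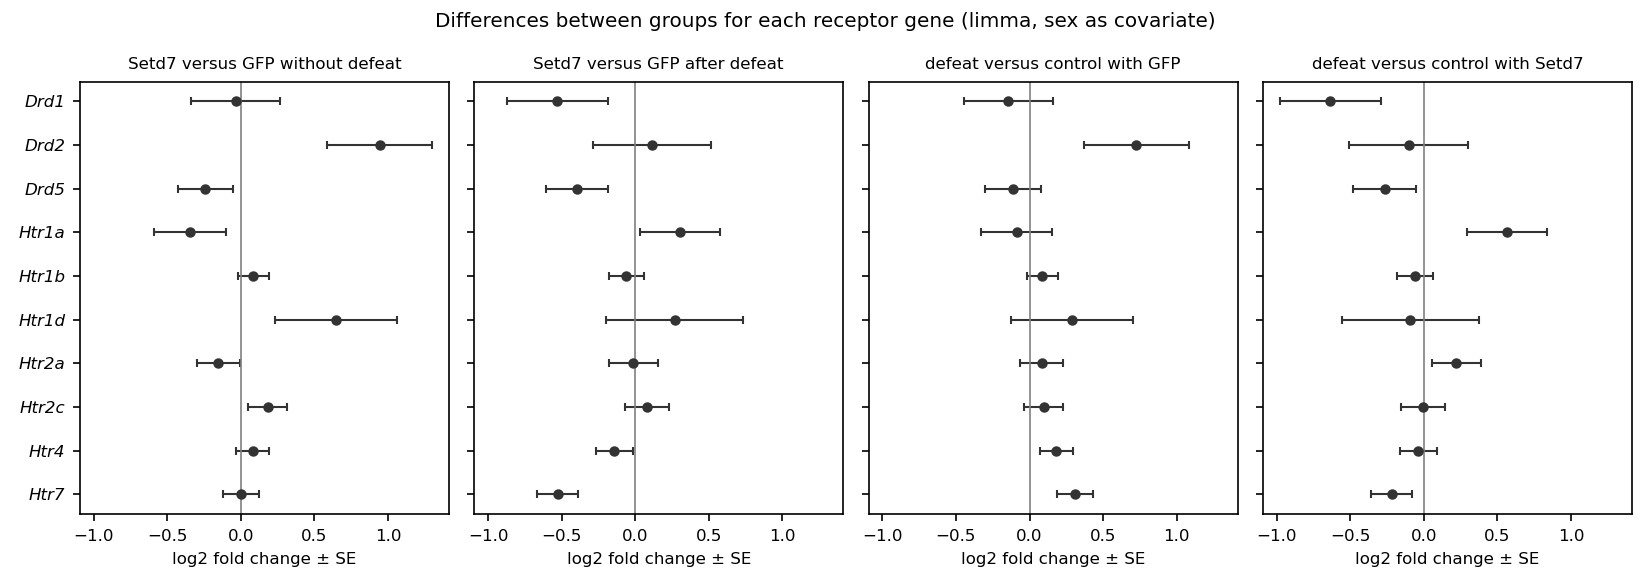
Log2 fold changes with their standard errors (horizontal axes) for each receptor gene in the 4 comparisons between pairs of groups, from limma with sex as a covariate; a value right of 0 is higher in the group named first. Drd2 lies farthest to the right without defeat (0.94) and Htr7 lies left of 0 for Setd7 after defeat (−0.53), and no receptor passed adjusted p = 0.05.

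Among the receptors that raise cyclic AMP, Htr7 had the lowest unadjusted p. The GFP control libraries held 799, 1215 and 802 normalized counts of Htr7, and the GFP defeat libraries 1160, 1063, 1142 and 1107. With Setd7 virus, Htr7 stood at 792, 888, 971 and 973 without defeat, and at 722 and 831 with defeat. Both Setd7 defeat libraries thus lay below all 4 GFP defeat libraries, whereas GFP control overlapped every other group.

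Htr7 differed between Setd7 and GFP after defeat by −0.53 ± 0.14 (log2 fold change ± SE, 95% interval −0.83 to −0.23, unadjusted p = 0.00219, adjusted p = 0.990 by limma). Htr7 was the 1 receptor of 10 whose groups did not overlap in that comparison, where 14.1% of all genes did not overlap. It was also the 1 receptor of 10 with an unadjusted p under 0.05, against 4.85% of all genes. For Htr7 the adjusted p was 0.984 by edgeR and 0.225 by DESeq2. Leaving out 1 library at a time kept this Htr7 difference between −0.56 and −0.48, and without the 3 libraries with low Th it was −0.48 ± 0.10 (adjusted p = 0.999).

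Defeat with GFP gave Htr7 a difference of 0.31 ± 0.12 (unadjusted p = 0.0264, adjusted p = 0.493 by limma), the 1 receptor of 10 under an unadjusted p of 0.05 where 9.25% of all genes were. Without GFP control replicate 3 this Htr7 value was 0.18, and without GFP control replicate 2, the GFP control library at 1215, it was 0.48. Defeat with Setd7 gave Htr7 −0.22 ± 0.14 (adjusted p = 0.9999). The difference between these defeat effects, the interaction, was −0.53 ± 0.18 for Htr7 (95% interval −0.93 to −0.13, unadjusted p = 0.0136, adjusted p = 0.942 by limma). Htr7 was the 1 receptor of 10 under 0.05 there, beside 4.96% of all genes. With 1 library left out at a time, the Htr7 interaction ran from −0.70 without GFP control replicate 2 to −0.40 without replicate 3.

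Other cell markers also differed between the Setd7 defeat and GFP defeat libraries. Endothelial and mural cell markers summed to 16929 and 21070 normalized counts in Setd7 defeat against 13749 to 15095 in GFP defeat, with 8 of 8 markers at a higher value and none at 0 in any library. Microglia markers were at a higher value for 8 of 8 (sums of 8829 and 11701 against 7340 to 8711), and thalamus markers at a lower value for 8 of 8 (10825 and 11630 against 10459 to 22370). The thalamus sum of 22370 was that of GFP defeat replicate 4. The rest of that group had 10459 to 12538, a range that holds both Setd7 defeat sums. The part of these cell types in the Htr7 result was not tested.

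Htr4 and the D1-class receptors completed the cyclic AMP group. Htr4 read 354 to 486 normalized counts over all libraries, with group means of 389 ± 45.3 (SD, GFP control, n = 3), 445 ± 44.9 (GFP defeat, n = 4), 413 ± 14.5 (Setd7 control, n = 4) and 402 ± 33.6 (Setd7 defeat, n = 2). Its difference between Setd7 and GFP without defeat had a 95% interval of −0.17 to 0.32, and after defeat one of −0.42 to 0.13. Htr4 was thus bounded more tightly than most of the set.

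The GFP control libraries held 110, 121 and 122 normalized counts of Drd5, and the GFP defeat libraries 123, 109, 82.2 and 123. With Setd7 virus, Drd5 stood at 98.3, 83.1, 109 and 106 without defeat, and at 80.2 and 83.2 with defeat. All 4 Setd7 control libraries lay below all 3 GFP control libraries for Drd5, the 1 receptor of 10 without overlap in that comparison, where 8.26% of all genes did not overlap. GFP defeat replicate 3 (82.2) lay within the Setd7 defeat values, and over all Setd7 against all GFP libraries 0 of 10 receptors separated, beside 0.135% of all genes. Between defeat and control, 0 of 10 separated with either virus, beside 9% of all genes with GFP and 9.14% with Setd7.

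The Drd5 difference was −0.24 ± 0.19 for Setd7 without defeat (adjusted p = 0.773 by limma) and −0.40 ± 0.21 after defeat (adjusted p = 0.990). Averaged over defeat it was −0.32 ± 0.14 (95% interval −0.63 to −0.01, unadjusted p = 0.0434, adjusted p = 0.697). Drd5 and Htr7 were the 2 receptors of 10 under an unadjusted p of 0.05 for averaged Setd7, beside 7.12% of all genes. The averaged value for Htr7 was −0.26 ± 0.09 (unadjusted p = 0.0137, adjusted p = 0.686). Without the 3 libraries with low Th the averaged Drd5 value was −0.26 ± 0.20 (unadjusted p = 0.230), no longer under 0.05. Thalamus markers were at a lower value with Setd7 for 8 of 8, both without and after defeat, and microglia, oligodendrocyte and endothelial markers at a higher averaged value for 8 of 8 each. Their part in the Drd5 value was not tested.

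Normalized counts of Drd1 with GFP virus were 146, 186 and 137 without defeat, then 185, 137, 91.6 and 152 with it. With Setd7 virus, Drd1 stood at 120, 150, 142 and 187 without defeat, and at 59.2 and 151 with defeat. Setd7 defeat replicate 1 was the lowest of all 13 libraries, while replicate 2 of that group lay in the middle of the others. The Drd1 differences of −0.53 ± 0.34 for Setd7 after defeat (adjusted p = 0.990 by limma) and of −0.64 ± 0.34 under Setd7 virus for defeat (adjusted p = 0.9999) rested on that library, since without it they were 0.15 and 0.04. Drd1 differed by −0.04 ± 0.30 between Setd7 and GFP without defeat (95% interval −0.69 to 0.62).

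Drd2 leads the receptors that lower cyclic AMP. The GFP control libraries held 2542, 1226 and 1098 normalized counts of Drd2, and the GFP defeat libraries 1325, 2858, 2632 and 3883. With Setd7 virus, Drd2 stood at 2934, 2796, 2067 and 4172 without defeat, and at 2714 and 2682 with defeat. The 3 lowest Drd2 values were those of the 3 libraries with low Th, and the 2 highest, GFP defeat replicate 4 and Setd7 control replicate 4, had the highest Th (17550 and 19111). In bulk tissue, fewer dopamine neurons in the punch and less Drd2 RNA per neuron cannot be told apart.

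The Drd2 difference between Setd7 and GFP without defeat was 0.94 ± 0.36 (1.92-fold, 95% interval 0.17 to 1.72, unadjusted p = 0.0207, adjusted p = 0.579 by limma), the 1 receptor of 10 under 0.05 beside 8.01% of all genes. In the same comparison 13 of 13 dopamine neuron markers were at a higher value, with summed levels of 28737 to 78996 in GFP control and 71554 to 137879 in Setd7 control, and none was at 0. Without the 3 libraries with low Th, the Drd2 difference was 0.16. That fit drops the 3 lowest Drd2 values and leaves GFP control with replicate 1 alone, so it does not test the difference. Without GFP control replicate 1, the GFP control library with high Th, the Drd2 difference was 1.47. Thalamus markers lay the other way, 8 of 8 at a lower value, with summed levels of 12615 to 30185 in GFP control against 10052 to 11536 in Setd7 control, with 1 thalamus marker at 0 in Setd7 control replicate 1. Microglia markers (8 of 8, sums of 6920 to 9325 against 6947 to 27196) and oligodendrocyte markers (8 of 8, sums of 358007 to 449427 against 389764 to 506553) were also at a higher value in Setd7 control, with none at 0. The microglia sum of 27196 was that of Setd7 control replicate 4, and the rest of that group had 6947 to 10012. The part of these cell types in the Drd2 value was not tested. Drd2 gave 0.73 ± 0.36 for defeat with GFP (adjusted p = 0.552). Without the 3 libraries, with GFP control again replicate 1 alone, it was 0.24. For the same defeat comparison, leaving out only GFP control replicate 1 gave 1.25, and leaving out only replicate 4 of GFP defeat gave 0.46. With 13 of 13 dopamine markers again at a higher value, summed levels in GFP defeat were 29469 to 125707. After defeat, Setd7 against GFP gave Drd2 0.11 ± 0.40, and defeat with Setd7 gave −0.10 ± 0.40.

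The genes whose levels followed Drd2 most closely over the 13 libraries were Ret, the GDNF co-receptor of dopamine neurons (r = 0.978), Gucy2c, a guanylyl cyclase receptor (r = 0.978), and Chrna6, a nicotinic receptor subunit of these neurons (r = 0.975), out of 13884 candidates. With summed markers over the 13 libraries, r was 0.984 for dopamine neurons, 0.622 for oligodendrocytes, 0.602 for microglia and −0.540 for thalamus. The remaining marker lists gave r from −0.117 (hypothalamus) to 0.395 (GABA neurons). The libraries fall into a low and a high Th cluster, which r over all 13 can reflect. Relations with dopamine genes that are given a p were therefore computed within the 10 libraries with high Th. There Drd2 and Th gave r = 0.861 (permutation p = 0.00501, the same after adjustment over the 4 relations given a p) and rho = 0.661 (permutation p = 0.0446, adjusted 0.0446). Without the 2 libraries farthest from the median of Th, r was 0.263, so the relation rests on them. Drd2 and Slc6a3, the dopamine transporter, gave r = 0.899 (permutation p = 0.00059, adjusted 0.000787) and rho = 0.879 (permutation p = 0.00182, adjusted 0.00243), and r = 0.566 without the 2 farthest libraries. These pairs were chosen after the values were seen, and correlations with many other genes and marker sums were also computed. The adjustment does not cover that choice, so the p-values do not establish a relation.

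**Figure D4:**
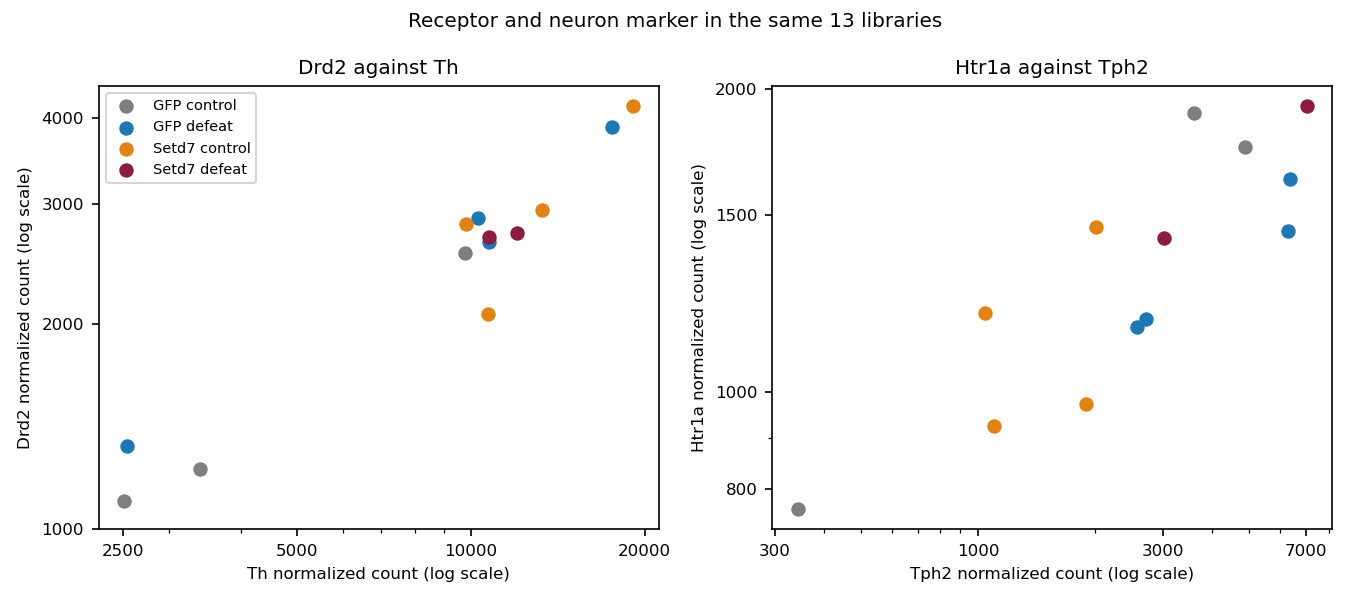
Left, Drd2 against Th and, right, Htr1a against Tph2, as normalized counts on log axes, with 1 point per library coloured by group. The 3 libraries with low Th (2508 to 3392) have the 3 lowest Drd2 values, and Htr1a runs from 765 where Tph2 is 343 to 1925 where Tph2 is 7019.

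Htr1a, the inhibitory autoreceptor of serotonin neurons, held 1754, 765 and 1897 normalized counts in the GFP control libraries, while the GFP defeat libraries had 1161, 1628, 1446 and 1181. With Setd7 virus, Htr1a stood at 1199, 1460, 926 and 972 without defeat, and at 1925 and 1423 with defeat. GFP control held both the lowest library of the 13 and the second highest, so that group spanned nearly the whole range. Setd7 control and Setd7 defeat overlapped narrowly, at 1460 and 1423.

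The Htr1a difference for defeat with Setd7 was 0.56 ± 0.27 (95% interval −0.03 to 1.15, adjusted p = 0.9999 by limma), with 0 of 10 receptors under an unadjusted p of 0.05 by limma beside 2.59% of all genes. By DESeq2 its unadjusted p was 0.0303 (adjusted p = 0.9999). The 3 libraries with low Th all carry GFP virus, so leaving them out could not change this difference between Setd7 groups. Beside this difference, 6 of 6 serotonin neuron markers were at a higher value, their summed levels being 2973 to 5531 without defeat and 7933 and 14954 with it. GABA neuron markers were also at a higher value for 6 of 6, with sums of 60270 to 73699 without defeat and 70145 and 74043 with it. No marker of either list was at 0 in any library, and their part in the Htr1a value was not tested. For Setd7 without defeat Htr1a gave −0.34 ± 0.24 (adjusted p = 0.746), with 6 of 6 serotonin markers at a lower value (summed levels of 1904 to 11163 in GFP control), moving to −0.70 without GFP control replicate 2 and to −0.05 without replicate 3. For defeat with GFP it gave −0.09 ± 0.24 and for Setd7 after defeat 0.30 ± 0.27 (adjusted p = 0.990), the latter 0.16 without GFP defeat replicate 1. The Htr1a interaction was 0.65 ± 0.36 (95% interval −0.14 to 1.44, adjusted p = 0.942), the opposite sign to that of Htr7. It was 0.35 without GFP control replicate 3 and 1.01 without GFP control replicate 2. Without the 3 libraries with low Th it was 0.60, and by DESeq2 on all libraries its unadjusted p was 0.0374 (adjusted p = 0.924).

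Htr1a followed the serotonin neuron genes over all 13 libraries, but not these alone. With summed markers r was 0.858 for serotonin neurons, 0.732 for GABA neurons and 0.539 for astrocytes. The remaining marker lists gave r from −0.282 (hypothalamus) to 0.450 (oligodendrocytes). With Tph2, the rate-limiting enzyme of brain serotonin synthesis, r was 0.852 (permutation p = 0.00017, adjusted 0.00048) and rho 0.819 (permutation p = 0.0012, adjusted 0.00243), and r was 0.802 without the 2 libraries farthest from the median of Tph2. With the transcription factor Fev, r was 0.860 (permutation p = 0.00024, adjusted 0.00048) and rho 0.808 (permutation p = 0.00145, adjusted 0.00243), and r was 0.695 without the 2 farthest. As deviations from group means, r was 0.902 for Tph2 and 0.927 for Fev. The permutations moved libraries across groups, and the pairs with Tph2 and Fev were also chosen after the values were seen. Their p-values therefore do not establish a relation. Tph2 itself read 343 to 7019 normalized counts, the former in GFP control replicate 2, which also had the lowest Htr1a. Over all candidates the closest followers of Htr1a were Mab21l1 (r = 0.937), the nicotinic subunit Chrna2 (r = 0.925) and Stard13 (r = 0.914).

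Htr1d, a terminal autoreceptor, was the most variable receptor. Normalized counts of Htr1d with GFP virus were 239, 478 and 140 without defeat, then 371, 175, 393 and 328 with it. With Setd7 virus, Htr1d stood at 603, 290, 510 and 255 without defeat, and at 331 and 401 with defeat. The highest and lowest libraries were in the groups without defeat, and all groups overlapped. The Htr1d difference for Setd7 without defeat was 0.65 ± 0.41 (95% interval −0.25 to 1.55, adjusted p = 0.717 by limma), ranging from 0.20 without GFP control replicate 3 to 1.08 without GFP control replicate 2, and 0.41 without Setd7 control replicate 1. C1ql2 (r = 0.943), which encodes a secreted synaptic protein, the receptor tyrosine kinase Alk (r = 0.910) and the synapse organizer Cbln1 (r = 0.870) followed Htr1d most closely.

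Htr1b, the other terminal autoreceptor, was nearly flat. It read 876 to 1148 normalized counts, with group means of 985 ± 99.7 (GFP control, n = 3), 1047 ± 95.4 (GFP defeat, n = 4), 1046 ± 79.6 (Setd7 control, n = 4) and 1004 ± 118 (Setd7 defeat, n = 2). Its 95% intervals were −0.14 to 0.32 both without defeat for Setd7 and under GFP virus for defeat, and −0.32 to 0.20 both for Setd7 after defeat and for the defeat effect under Setd7. No end of these Htr1b intervals was farther from 0 than 0.32.

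Htr2c and Htr2a act through phospholipase C. Htr2c, which is also abundant in choroid plexus, held 7287, 6135 and 5703 normalized counts in the GFP control libraries, while the GFP defeat libraries had 6779, 6462, 7071 and 6814. With Setd7 virus, Htr2c stood at 6076, 8532, 6174 and 8369 without defeat, and at 6524 and 7861 with defeat. Replicates 2 and 4 of Setd7 control were the highest of the 13 libraries for Htr2c, while GFP defeat was narrow. The largest Htr2c difference among the 4 pairs of groups was 0.18 ± 0.13 for Setd7 without defeat (95% interval −0.10 to 0.47, adjusted p = 0.755 by limma), which was −0.06 without the 3 libraries with low Th. Choroid plexus markers summed to 518 to 1591 normalized counts over all libraries, with none at 0. Their part in the Htr2c values was not tested. Asah1 (r = 0.869), Erp44 (r = 0.861) and Fli1 (r = 0.842) followed Htr2c most closely. The highest r among 13884 candidates over 13 libraries can be this large without any relation, and none was tested.

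Normalized counts of Htr2a with GFP virus were 656, 629 and 683 without defeat, then 711, 682, 816 and 589 with it. With Setd7 virus, Htr2a stood at 648, 633, 635 and 466 without defeat, and at 598 and 793 with defeat. All groups overlapped, and Setd7 control replicate 4, the library with high microglia markers, was the lowest. Without it the Htr2a difference for Setd7 without defeat was −0.02. The Htr2a differences were −0.15 ± 0.15 for Setd7 without defeat, 0.08 ± 0.15 for defeat with GFP, −0.01 ± 0.17 for Setd7 after defeat and 0.22 ± 0.17 under Setd7 virus for defeat, with adjusted p of 0.812, 0.912, 0.998 and 0.9999 by limma. Kcnh8, a voltage-gated potassium channel, followed Htr2a at r = 0.943. For the D1-class receptors the closest followers were Pcnt for Drd1 (r = 0.897) and Rfng for Drd5 (r = 0.857). They were Asic1 for Htr1b (r = 0.850), Ccdc103 for Htr4 (r = 0.870) and Add1 for Htr7 (r = 0.914). The limit given for the followers of Htr2c holds for these as well.

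Averaged over virus, defeat gave 0 of 10 receptors under an unadjusted p of 0.05, beside 5.18% of all genes, with Drd1 lowest at −0.39 ± 0.23 (adjusted p = 0.930 by limma) and Drd2 highest at 0.31 ± 0.27 (adjusted p = 0.952). This Drd1 value was −0.07 without Setd7 defeat replicate 1 and −0.75 without replicate 2 of that group. This Drd2 value was 0.18 without GFP defeat replicate 4, 0.57 without GFP control replicate 1 and 0.07 once all 3 low-Th libraries were left out. Between sexes the count was also 0 of 10, beside 3.87% of all genes. Htr1a had the largest sex difference, −0.36 ± 0.18 in males against females (95% interval −0.74 to 0.03, adjusted p = 0.999), with means of 1521 ± 305 (n = 6) in female and 1230 ± 389 (n = 7) in male libraries. As a set, the 10 receptors had a median log2 difference of 0.04 for Setd7 without defeat (6 higher, 4 lower), against 0.01 for all tested genes. The medians were 0.09 for defeat with GFP (7 higher, 3 lower, all genes −0.002), −0.04 for Setd7 after defeat (4 higher, 6 lower, all genes 0.003) and −0.08 for the defeat effect under Setd7 (2 higher, 8 lower, all genes −0.007).

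The wider pathway was read from 6 further lists with 80 genes, of which 78 were tested: other dopamine and serotonin receptors, adrenergic and histamine receptors, G protein alpha subunits, adenylyl cyclases and cyclic AMP effectors, receptor regulators and coupled channels, and enzymes and transporters of the monoamines. By limma, edgeR and DESeq2, 0 of 78 passed an adjusted p of 0.05 in each of the 8 comparisons. At an unadjusted p under 0.05 by limma, 8 were higher and 6 lower for Setd7 without defeat (17.9% of 78, beside 8.01% of all genes), and 8 higher and 2 lower for defeat with GFP (12.8%, beside 9.25%). After defeat the counts for Setd7 were 0 and 3 (3.85%, beside 4.85%), and with Setd7 virus those for defeat were 1 and 0 (1.28%, beside 2.59%). They were 0 and 1 in the interaction (1.28%, beside 4.96%), 4 and 6 for averaged Setd7 (12.8%, beside 7.12%), 7 and 0 for averaged defeat (8.97%, beside 5.18%), and 3 and 1 for males against females (5.13%, beside 3.87%). All these shares include the 3 libraries with low Th.

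The examples that follow are from the 3 genes with the smallest unadjusted p in each list. The histamine receptor Hrh2 gave −0.48 ± 0.14 for Setd7 without defeat (adjusted p = 0.539 by limma), and the adrenergic receptor Adra1b gave 0.26 ± 0.08 for defeat averaged over virus (adjusted p = 0.922). The inhibitory subunit Gnai2 gave 0.23 ± 0.08 for Setd7 without defeat (adjusted p = 0.563) and Gnai1 0.17 ± 0.07 for defeat with GFP (adjusted p = 0.475). The cyclase Adcy3 gave 0.24 ± 0.07 for defeat with GFP and an interaction of −0.37 ± 0.11 (adjusted p = 0.397 and 0.942), and Adcy8 gave −0.29 ± 0.09 for Setd7 without defeat (adjusted p = 0.547). Rgs2, which shortens G protein signalling, gave 0.25 ± 0.08 for defeat with GFP (adjusted p = 0.414). Drd3, at 9.83 to 43.3 normalized counts, gave 0.80 ± 0.29 for defeat averaged over virus (adjusted p = 0.922), and Htr5b gave 0.53 ± 0.23 in the same comparison. Th gave 1.58 ± 0.57 and Slc6a3 1.63 ± 0.61 for Setd7 without defeat (both adjusted p = 0.579), and Slc6a4, the serotonin transporter, gave 1.31 ± 0.50 for defeat averaged over virus (adjusted p = 0.922). The Th and Slc6a3 values include GFP control replicates 2 and 3, whose dopamine neuron markers summed to 28737 and 29342, against 78996 in replicate 1. Without the 3 libraries with low Th, Drd2 in that comparison moved from 0.94 to 0.16. GFP control is then replicate 1 alone and the 3 lowest Drd2 values are gone. The move is therefore no test of the Th and Slc6a3 values.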

How the data were processed

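Per the labels' protocols, RNeasy Micro kits gave total RNA, and libraries came from a TruSeq kit with RiboZero depletion. The submitters' processing notes name Bowtie2, featureCounts, DESeq2 and build GRCm39; versions and the strand setting are not given in the sources used here. The deposited table holds signal in the form of gene counts divided by 1 size factor per library by the authors. All 341432 values (100%) lay within 0.01 of a whole multiple of 1 step per library, so reads were recovered, and they served the count tests and the depth given for a value.

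Normalized values were tested in R 4.3.3 by limma 3.58.1, using its mean-variance trend, on log2(normalized count + 1), with 4 group means and sex, two-sided, and Benjamini-Hochberg adjustment over 17755 genes that had at least 10 normalized counts in 2 or more libraries. Log2 fold changes are on that scale. Alternatives were edgeR 4.0.16 and DESeq2 1.42.0 on recovered reads, TMM-scaled log2 CPM, pseudocounts of 0.5 and 5, 2 other filters, no sex term, leaving out each library, and, chosen after seeing the data, leaving out 3 libraries with low Th. DESeq2 set aside the adjusted p of 2 of 80 receptor tests. The limma fit was run on simulated data in which every gene had the same small spread. Within-group SDs here were larger for some receptors (0.54 for Drd2 and 0.63 for Htr1d in log2). The simulation therefore does not show how the fit behaves for them.

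All 10 receptors are named; from other lists, genes among the 3 with the smallest unadjusted p are named, and followers are the genes with the highest Pearson r over 13 libraries among named genes with a mean of at least 30. Members and lists were chosen with earlier results of these data known. Exon lengths (GENCODE M21) and promoters (RefSeq) are on GRCm38 and were matched by name.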

Additional observations from a re-analysis of the deposited data

Results flagged for a closer look

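Htr2a read 465.9 normalized counts in Setd7 control replicate 4, against 633 to 648 in the other 3 libraries of that group, a gap large enough to stand apart by Dixon's test at the 95% level. It was the 1 value that did so among 20 groups of 4 libraries examined (10 receptors in GFP defeat and Setd7 control), where chance gives about 1 in 20. Without this library the Htr2a difference between Setd7 and GFP without defeat was −0.02, compared with −0.15 with it. The same library had the highest sum of microglia markers, 27196 normalized counts against 6920 to 11701 in the other 12, and 8 of 8 microglia markers were at a higher value for Setd7 without defeat. Their part in the Htr2a value was not tested.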

How the results depend on the processing

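No receptor passed an adjusted p of 0.05 in any of 8 comparisons under any of 22 alternative settings (175 counts, all 0); the lowest adjusted p reached was 0.180, for Drd2 and Setd7 without defeat when GFP control replicate 1 was left out. Of 80 receptor differences, 37 were larger than their standard error, and 7 of these changed sign in some setting. Without the 3 libraries with low Th, an alternative chosen after seeing the data, Htr2c for Setd7 without defeat was −0.065 and Drd2 for Setd7 averaged over defeat −0.011. When 1 library was left out at a time, Drd1 ranged from −1.21 to 0.15 for Setd7 after defeat, −1.32 to 0.044 for defeat with Setd7, −1.14 to 0.22 for the interaction and −0.64 to 0.041 for averaged Setd7. Htr2a for defeat with Setd7 ranged from −0.027 to 0.47. The changes of sign in Drd1 came without Setd7 defeat replicate 1 and that in Htr2a without Setd7 defeat replicate 2, which leaves 1 library in the group. The other 43 differences were smaller than their standard error, and 35 changed sign in some setting, so the signs printed for them, and their share in the tallies of higher and lower receptors, do not establish a direction. No paired analysis was possible because the labels give no replicate numbers shared between groups. Groups of 2 to 4 libraries, and 59 to 261 reads for Drd1 and 70 to 170 for Drd5, limit the precision.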
